A study of Caenorhabditis elegans with 20 samples.

Results

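The genes of the larval moult described here are 10 of the 21383 genes in the deposited table of read counts. They were picked by name, as regulators, enzymes and matrix proteins of moulting, and they were followed over 4 groups of whole Caenorhabditis elegans and from library to library at L4, the last larval stage. All 10 had a row in the table. The regulators are nhr-23 (C01H6.5 in the table), nhr-25 (F11C1.6) and lin-42 (F47F6.1). The proteases and the protease inhibitor are nas-37 (C17G1.6), bli-4 (K04F10.4) and mlt-11 (W01F3.3). The remaining genes are mlt-10 (C09E8.3), noah-1 (C34G6.6), noah-2 (F52B11.3) and dpy-5 (F27C1.8).

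A nematode larva ends each stage by building a new cuticle under the old cuticle and then shedding the old layer. The genes behind this work are switched on and off in step with the larval stages, mostly in the hypodermis, the skin that secretes the cuticle, and they fall silent once the adult cuticle has been made. Their RNA is therefore known as a readout of how far a larva is from its moult, and adult collagens such as col-19 and the yolk genes are known for the opposite, since they come on when animals become adult.

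The series compared a strain overexpressing elt-2 (elt-2 OE, strain SD1963) with a transgenic control (strain SD1965). ELT-2 is the GATA transcription factor of the intestine. By the strain table of the study, both strains carried rde-1(ne300), which disables RNAi and so limits silencing of transgenes, and unc-119(ed3) rescued by unc-119(+) on an extrachromosomal array. The elt-2 OE array also held many copies of elt-2 fused to GFP under its own upstream region. A single line of each strain was sequenced, and an array of this kind is not inherited by every animal or cell. Each strain was collected at L4, 28 hours after L1 larvae were fed, and at Day 13 of adulthood from plates with FUDR, which blocks progeny, with dead animals removed by hand. The text on growth in the sample labels names N2 for the L4 cultures, whereas titles and strain fields name the transgenic strains, and groups follow the titles. Each group had 5 libraries lettered A to E, each from a population of about 10000 animals and given in the labels as a biological replicate.

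RNA was measured by 3SEQ, which reads the 3′ ends of polyadenylated RNA, so a count does not grow with transcript length. Levels are given as CPM, counts per 1000000 counts of the library after scaling by TMM, and log2 values were taken after adding 0.5 CPM. Libraries held between 10749795 and 42317549 counts. The floor of detection was taken as 3 counts, which is 0.0709 to 0.279 per 1000000 counts before scaling by TMM. TMM factors ran from 0.648 to 2.21, so on the scaled CPM used here the floor of a library differs from these values. Letters D and E were shallower, with 10749795 to 25967701 counts in 8 libraries, than letters A to C, with 22338800 to 42317549 counts in 12 libraries. Transcripts of elt-2 were higher in elt-2 OE in 5 of 5 letters at both ages, by 3.57-fold on the group means at L4 and by 5.67-fold at Day 13. At L4 elt-2 also differed by letter, at 0.674 to 1.08 CPM in control A to C and 2.63 and 3.49 CPM in control D and E. In elt-2 OE L4 it was at 3.16 to 4.95 CPM in A to C and 8.03 and 10.2 CPM in D and E. Control E thus lay above elt-2 OE C, and the strains overlapped at L4. In the fit over all genes elt-2 was called at Day 13 (edgeR, log2 difference 2.47 ± 0.30 SE, adjusted p = 0.0176) and was not called at L4 (1.83 ± 0.54, adjusted p = 0.340).

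The libraries labelled L4 differed in col-19 and the yolk genes, known as marks of the adult, and this touches every result below. In letters A to C of both strains the adult collagen gene col-19 stood between 4029 and 13140.1 CPM, above each of the 10 Day 13 libraries, which lay between 171 and 1163 CPM. In letters D and E it was at 1.58 and 1.36 CPM in control and at 135 and 123 CPM in elt-2 OE. The yolk gene vit-2 followed the same division, at 855 to 3425 CPM in letters A to C, 5.45 and 0.473 CPM in control D and E, and 50.2 and 42.7 CPM in elt-2 OE D and E. All 6 yolk genes were lower in all 4 L4 libraries of letters D and E than in all 6 of letters A to C. So were 3 of 5 sperm genes and 3 of 4 germline genes. This order was found in 16.2% of all genes with a mean of at least 1 CPM at L4. Of 4 adult cuticle collagens (col-19, col-7, bli-1 and bli-2), only 1, col-19, showed this order. On means of log2 values, D and E less A to C was 0.34 in control and 3.30 in elt-2 OE for bli-1. For bli-2 it was -0.97 and 2.90, so these 2 adult genes did not follow col-19. For col-7 it was -2.46 and -2.73, the direction of col-19. The labels give the letters no meaning beyond a replicate, so no batch was named, and the division into A to C and D and E was taken from the data. It is used as a description only. Comparisons are also given within each set. Since the sets came from these same counts, calls and adjusted p-values within them are a description too. The part of stage, culture or sequencing in the division was not tested.

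At L4, 5 of the 10 moulting genes ran opposite to col-19 and the yolk genes. For lin-42, mlt-10, mlt-11, noah-1 and noah-2 all 4 libraries of letters D and E were above all 6 of letters A to C, and for none of the 10 were they all below. Of the 7 genes with a mean of at least 1 CPM at L4, 5 showed this separation, beside 23.1% of all genes at that level. The receptor nhr-23, the astacin nas-37 and the convertase bli-4 did not follow the division. The receptor nhr-25 had too few counts to be placed, and for dpy-5 letters D and E were on top in elt-2 OE but not in control. On means of log2 values, 8 of the 10 genes were higher in D and E than in A to C in both strains. That count takes in nas-37 and also nhr-25, at 0.12 in elt-2 OE on 1 to 3 counts per library. No share over all genes was computed for it, so it is a description only.

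mlt-10 varied most. It encodes a secreted protein of the hypodermis that is required for moulting, and it lies on chromosome II at 546705 to 552032 (WBcel235, plus strand). In control L4 it stood at 9.40, 30.6, 7.97, 80.7 and 100.2 CPM in letters A to E. In elt-2 OE L4 it stood at 3.73, 1.89, 3.03, 155 and 82.9 CPM. The highest L4 library thus held 82.1 times the level of the lowest, and the 4 libraries of letters D and E were the highest of the 10. Control B came next, and the same library had the lowest col-19, vit-2 and vit-6 of the 6 libraries of letters A to C. The ratio of mlt-10 to col-19 counts was between 0.000144 and 0.00759 over letters A to C, 1.15 and 0.673 in elt-2 OE D and E, and 51.2 and 73.7 in control D and E. Since mlt-10 overlaps 2 coding genes on its own strand in the annotation, T27A1.3 and lips-7, some of its reads could belong to them.

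**Figure D1:**
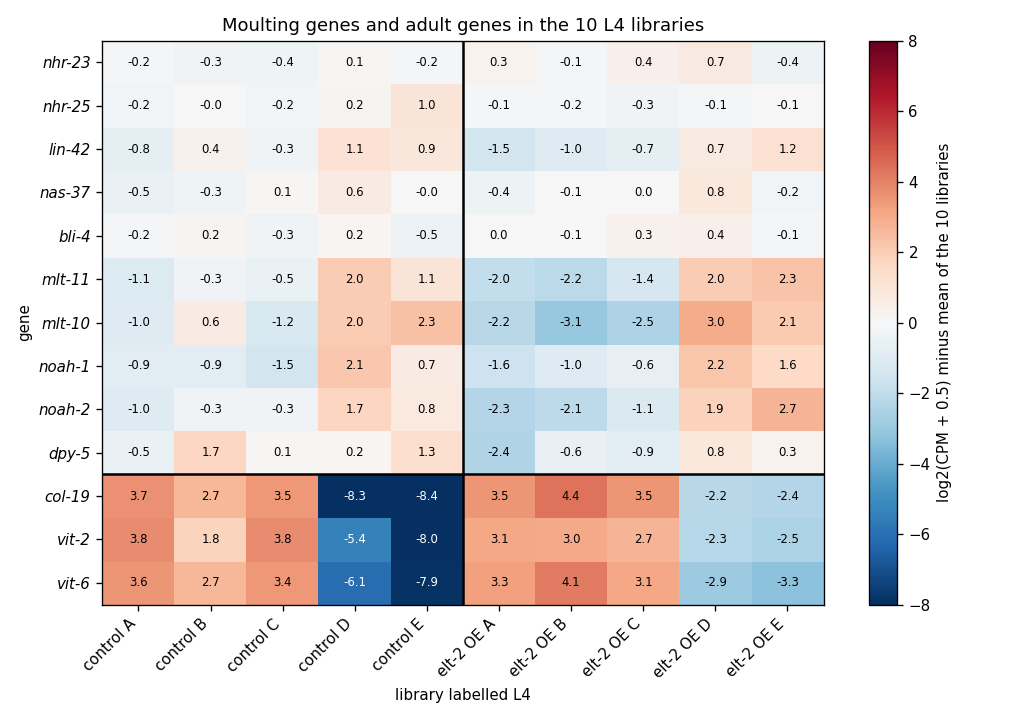
Each cell gives log2(CPM + 0.5) of a gene (row) in 1 of the 10 libraries labelled L4 (column) minus that gene's mean over the 10 libraries, red above and blue below the mean. mlt-11, mlt-10, noah-1 and noah-2 are red in letters D and E of both strains, where col-19, vit-2 and vit-6 are blue, and the rows of nhr-23 and bli-4 stay pale.

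The protease inhibitor mlt-11 and the matrix genes noah-1 and noah-2 had the same division. mlt-11 (chromosome V, 20667205 to 20678537, plus strand) encodes a protein with Kunitz-type inhibitor domains and is required for moulting. Its control L4 levels were 1.03, 2.18, 1.77, 12.6 and 6.21 CPM in letters A to E. Its elt-2 OE L4 levels were 0.308, 0.210, 0.747, 12.5 and 15.3 CPM. Letters D and E held 5.66 times the mean of letters A to C in control and 33.1 times in elt-2 OE.

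noah-1 and noah-2 encode zona pellucida domain proteins of the apical matrix that underlies a new cuticle. noah-1 (chromosome I, 5874416 to 5878958, minus strand) was at 0.753, 0.784, 0.361, 9.99 and 3.25 CPM in control L4. In elt-2 OE L4 it was at 0.273, 0.671, 1.04, 10.4 and 6.77 CPM. Levels below 1.1 CPM in all libraries of letters A to C thus stood against levels of at least 3.25 CPM in letters D and E. noah-2 (chromosome IV, 14091254 to 14096626, plus strand) was at 2.30, 4.24, 4.22, 18.5 and 9.29 CPM in control L4. In elt-2 OE L4 it was at 0.615, 0.839, 2.08, 20.3 and 36.4 CPM. Elt-2 OE E was the highest library for noah-2, mlt-11 and lin-42, whereas elt-2 OE D was the highest for mlt-10 and noah-1.

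lin-42, the worm counterpart of the clock gene Period and a timer of the moults, was the regulator that separated the letters. It lies on chromosome II at 1233236 to 1252359 on the minus strand, where non-coding RNAs overlap it. Its control L4 levels were 0.436, 1.57, 0.794, 3.01 and 2.54 CPM, and its elt-2 OE L4 levels were 0.0684, 0.294, 0.457, 2.15 and 3.16 CPM. Control B was again the highest of letters A to C. The 2 counts of lin-42 in elt-2 OE A lay under the floor of 3.

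nhr-23, a nuclear receptor of the ROR type that is needed at every larval moult, was low at L4. It maps to chromosome I, 7214745 to 7221299, plus strand, and no other gene of the annotation overlaps it. It stood at 0.515, 0.428, 0.397, 0.717 and 0.533 CPM in control L4 and at 0.889, 0.587, 1.04, 1.43 and 0.361 CPM in elt-2 OE L4. In elt-2 OE both the highest and the lowest of these levels belonged to letters D and E. The range came from 8 to 38 counts per library. The other receptor, nhr-25 (chromosome X, 13008493 to 13013964, plus strand), is the worm member of the NR5A family and acts in the hypodermis at the moult. It had 14 counts in control L4 E and 6 in control L4 D but at most 4 in any other L4 library.

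nas-37 encodes an astacin metalloprotease that opens the old cuticle. It lies on chromosome X at 9944844 to 9949063 on the minus strand, and the coding gene C17G1.5 overlaps it on the other strand. Its control L4 levels were 0.397, 0.535, 0.866, 1.53 and 0.769 CPM, and its elt-2 OE L4 levels were 0.479, 0.755, 0.830, 1.81 and 0.632 CPM. Letter D was the highest library in both strains, and letter E lay within the range of letters A to C. bli-4, a proprotein convertase that processes collagens, spanned only 1.24 to 2.79 CPM over the 10 L4 libraries, the narrowest range among the 10 genes at 2.25-fold. bli-4 maps to chromosome I, 6342224 to 6356680, plus strand, with the coding gene mut-2 on the other strand.

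dpy-5 (chromosome I, 5432197 to 5433051, minus strand) encodes a cuticle collagen and had by far the most counts of the 10 genes. Its control L4 levels were 1710.1, 7939, 2699, 2837 and 6357 CPM in letters A to E, so the highest library was control B, and letters D and E lay inside the range of the others. In elt-2 OE its L4 levels were 471, 1638, 1353, 4389 and 3087 CPM, with letters D and E on top. The mean of letters D and E was 1.12 times that of letters A to C in control and 3.24 times in elt-2 OE.

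**Figure D2:**
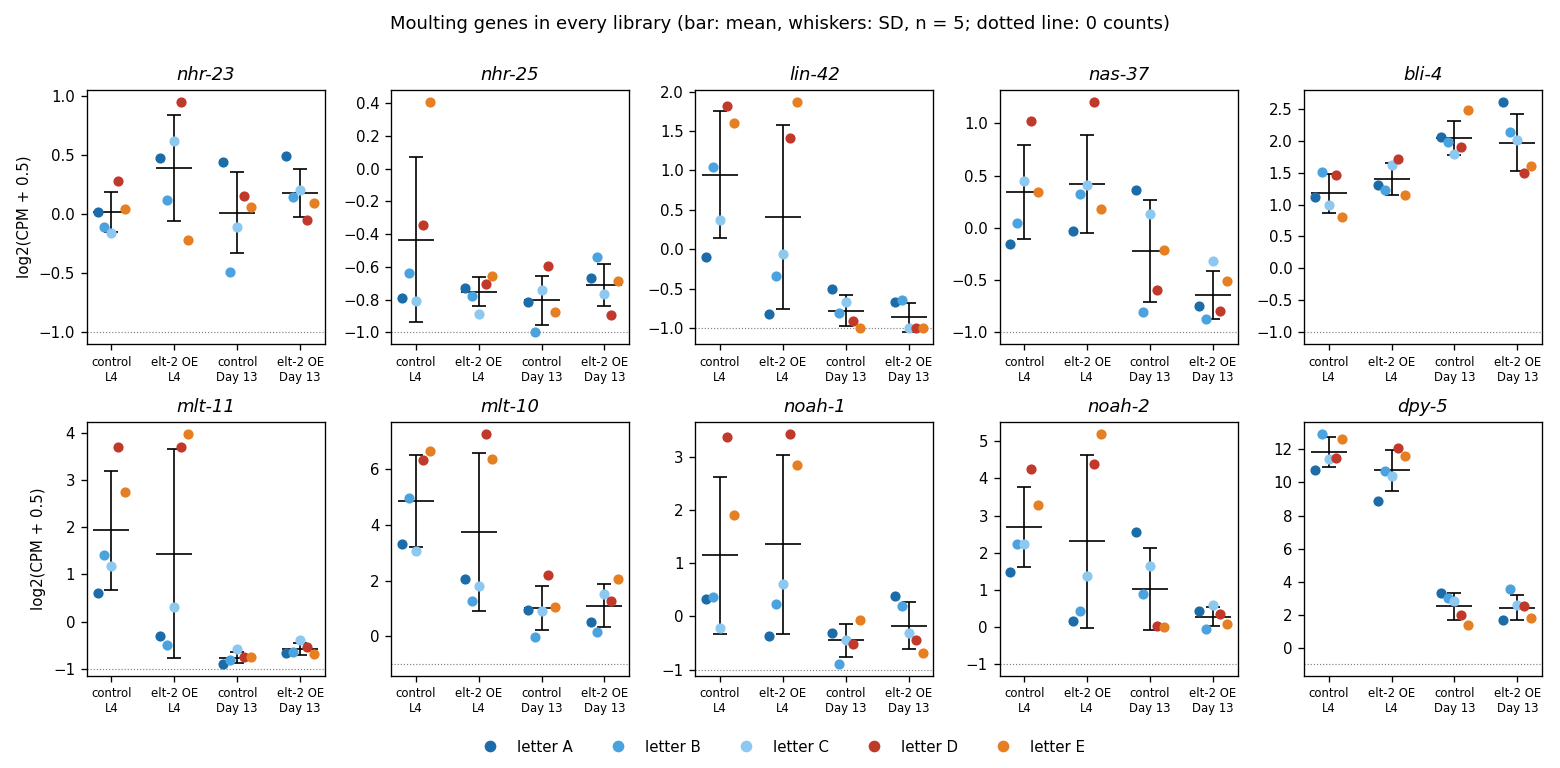
Points give log2(CPM + 0.5) of each gene in each of the 20 libraries, coloured by letter, with the group mean (bar) and SD (whiskers, n = 5). The vertical axis has its own range in each panel, and the dotted line marks 0 counts. At L4 letters D and E (red and orange) lie above letters A to C (blue) for lin-42, mlt-11, mlt-10, noah-1 and noah-2, while nhr-23 and bli-4 keep the letters mixed.

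The comparison of ages asked how these genes stood in old adults, which no longer moult. In control worms 6 of the 8 genes that passed the filter on low counts were lower at Day 13 (dpy-5, mlt-10, mlt-11, noah-1, noah-2 and nas-37), bli-4 was higher, and nhr-23 was not called. Without control L4 D the calls fell from 7 to 4, since noah-2, nas-37 and bli-4 were lost. In elt-2 OE 5 of the 7 tested genes were lower (dpy-5, mlt-10, noah-1, noah-2 and nas-37), none was higher, and nhr-23 and bli-4 were not called. The fits covered all genes with edgeR's quasi-likelihood test, and a call is an adjusted p under 0.10, the false discovery rate of 10% that the study used. A gene with few counts at Day 13 could pass the filter through its L4 libraries alone, as mlt-11 did in control and nas-37 in elt-2 OE. Of all genes tested, 23.7% were called lower and 21.9% higher in control, and 23.4% lower and 25.8% higher in elt-2 OE. The median log2 change was -2.90 over the 8 tested genes in control, beside 0.12 over all genes, and -3.26 over the 7 in elt-2 OE, beside 0.22. Dividing by totals that leave out the 3% most counted genes moved the median of all genes up by 0.49 in control and 0.34 in elt-2 OE, and then 65.4% and 63.1% of calls were higher, against 48.0% and 52.5% with TMM. In whole-worm RNA, fewer cells of a type and less RNA per cell cannot be told apart.

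The collagen dpy-5 fell most. Its 5 control Day 13 libraries were at 9.35, 7.60, 6.61, 3.37 and 2.12 CPM and its elt-2 OE Day 13 libraries at 2.75, 11.2, 5.63, 5.25 and 2.93 CPM. No Day 13 library came near the lowest L4 library of its strain. The group means were 742-fold lower in control (log2 change -9.82 ± 0.83 SE, adjusted p = 4.2e-05) and 393-fold lower in elt-2 OE (-8.70 ± 0.84, adjusted p = 2.52e-05, both by edgeR).

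mlt-10 and mlt-11 were low at Day 13. mlt-10 stood at 1.44, 0.495, 1.39, 4.08 and 1.58 CPM in control Day 13, all below its L4 libraries. In elt-2 OE Day 13 it stood at 0.938, 0.607, 2.40, 1.89 and 3.70 CPM, which overlapped the low L4 libraries of letters A to C. Its log2 change was -4.80 ± 0.89 in control (edgeR adjusted p = 0.00177) and -4.80 ± 1.31 in elt-2 OE (adjusted p = 0.0128). mlt-11 had between 1 and 6 counts in each of the 10 Day 13 libraries. Its control change was -5.73 ± 0.76 (edgeR adjusted p = 0.000215), with all Day 13 libraries below all L4 libraries, and in elt-2 OE it did not pass the filter.

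The matrix genes fell too, with more overlap. noah-1 was at 0.308, 0.0353, 0.231, 0.194 and 0.451 CPM in control Day 13 and at 0.809, 0.653, 0.305, 0.232 and 0.122 CPM in elt-2 OE Day 13. These levels rested on 1 to 10 counts per library in control and 3 to 25 in elt-2 OE. noah-2 was at 5.44, 1.34, 2.64, 0.518 and 0.496 CPM in control Day 13 and at 0.841, 0.467, 1.00, 0.773 and 0.569 CPM in elt-2 OE Day 13. In control A noah-2 was higher at Day 13 than at L4, at 5.44 against 2.30 CPM. The log2 change of noah-1 was -3.73 ± 0.88 in control (edgeR adjusted p = 0.00717) and -3.26 ± 0.98 in elt-2 OE (adjusted p = 0.0207). That of noah-2 was -2.07 ± 0.73 (adjusted p = 0.0431) and -4.14 ± 1.11 (adjusted p = 0.0119). The control call of noah-2 was lost without control L4 D (0.105) or without control Day 13 B (0.102).

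Among the proteases, nas-37 fell in both strains. Its control Day 13 levels were 0.788, 0.0707, 0.595, 0.162 and 0.361 CPM, which overlapped L4 (edgeR log2 change -1.26 ± 0.55, adjusted p = 0.0919). In elt-2 OE they were 0.0971, 0.0467, 0.305, 0.0773 and 0.203 CPM, all below the 5 L4 libraries (-2.67 ± 0.55, adjusted p = 0.00245). Leaving out any library other than control Day 13 A lost the control call of nas-37 (9 of 10 libraries, adjusted p 0.124 to 0.240), as did totals without the 3% most counted genes (0.249). The convertase bli-4 went the other way, from 1.80 ± 0.48 CPM at L4 to 3.67 ± 0.82 CPM at Day 13 in control (SD, n = 5), with the groups apart (edgeR log2 change 0.77 ± 0.34, adjusted p = 0.0892). The call for bli-4 was lost without any of 6 libraries, L4 D and E and Day 13 A, B, D and E (adjusted p 0.107 to 0.171). In elt-2 OE bli-4 was at 2.18 ± 0.47 and 3.57 ± 1.31 CPM (0.65 ± 0.32, adjusted p = 0.130, and called without Day 13 D at 0.0754 or without Day 13 E at 0.0855). It was also called higher there within letters A to C (edgeR adjusted p = 0.049). With totals without the 3% most counted genes it was called too (1.005, adjusted p = 0.0552), against a median of 0.56 over all genes.

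Of the 3 regulators only nhr-23 passed the filter, and it was not called. It stood at 0.518 ± 0.125 CPM at L4 and 0.531 ± 0.237 CPM at Day 13 in control (SD, n = 5, edgeR log2 change -0.18 ± 0.38, adjusted p = 0.727). In elt-2 OE it was at 0.862 ± 0.414 and 0.640 ± 0.164 CPM (-0.49 ± 0.39, adjusted p = 0.329, and called without elt-2 OE L4 E at 0.0789). With totals that leave out the 3% most counted genes the control change of nhr-23 was 0.29, against a median of 0.61 over all genes. lin-42 was at 0.0707 CPM (median, range 0 to 0.205) in control Day 13, below all 5 L4 libraries (exact permutation test, two-sided, p = 0.00794, the smallest that 252 splits can give). In elt-2 OE it had 4, 3, 0, 0 and 0 counts at Day 13 and the difference had an exact permutation p of 0.0238. nhr-25 had at most 5 counts in any Day 13 library (exact permutation p = 0.127 in control and 0.595 in elt-2 OE). For mlt-11 in elt-2 OE the same exact permutation test gave p = 0.0159. These 5 tests were made because the filter had left those genes out.

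Of the genes tested in the fits, every Day 13 library lay below every L4 library for 3 of 8 in control (dpy-5, mlt-10 and mlt-11), beside 11.4% of all genes, and for 2 of 7 in elt-2 OE (dpy-5 and nas-37), beside 15.6%. With 1 to 5 counts at Day 13 for mlt-11 in control and 1 to 7 for nas-37 in elt-2 OE, these 2 passed the filter through L4 alone. Their separation is therefore partly set by the filter. The same holds for lin-42 in the fits by set of letters. Values within the sets of letters are given beside those of all letters. Within letters D and E alone 7 of 9 tested genes were called lower in each strain (28.1% of all genes in control, 29.1% in elt-2 OE). Within letters A to C alone it was 4 of 8 in control, namely dpy-5, mlt-10, mlt-11 and lin-42 (29.6% of all genes), and 3 of 7 in elt-2 OE, namely dpy-5, mlt-10 and nas-37 (25.5%). bli-4 was called higher in elt-2 OE A to C (0.79 ± 0.28, edgeR adjusted p = 0.049), beside 2263 of 9123 genes. It was also called higher in control D and E (1.23 ± 0.55, adjusted p = 0.0787), beside 2933 of 9652 genes. noah-2 changed by -0.58 ± 0.47 in control A to C and by -4.77 ± 0.58 in control D and E (adjusted p = 0.343 and 5.3e-05). noah-1 changed by -0.36 ± 0.53 in elt-2 OE A to C and by -5.53 ± 0.69 in elt-2 OE D and E (adjusted p = 0.619 and 1.9e-05). The L4 levels of noah-1 and noah-2 followed the division, so a larger fall of these genes within D and E was partly set by it. The difference between the sets of letters was not tested.

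**Figure D3:**
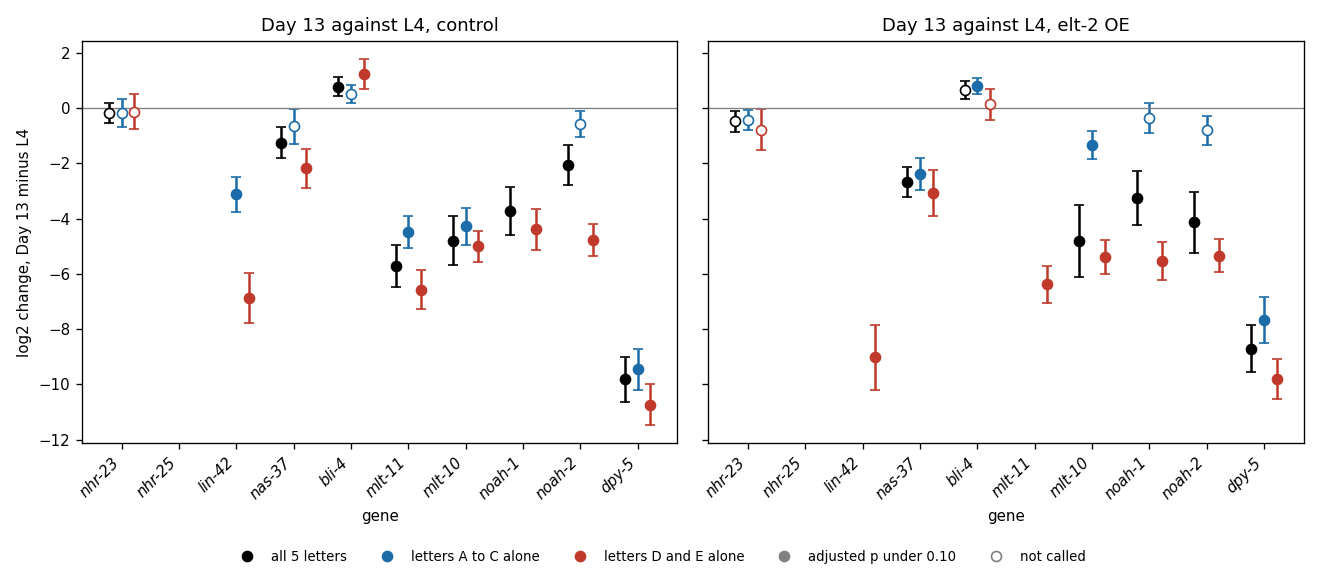
Points give the edgeR log2 change from L4 to Day 13 of each gene, with its SE, for all 5 letters (black), letters A to C alone (blue) and letters D and E alone (red), in control (left) and elt-2 OE (right). Filled points have an adjusted p under 0.10, and a gene that did not pass the filter of a fit has no point. In control noah-2 stands at -0.58 for letters A to C against -4.77 for D and E, whereas dpy-5 stays below -7 in all fits. The sets of letters were taken from these same counts.

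Muscle, intestine and sperm marker genes were called lower at Day 13 as well, while the germline and neuron lists were mixed. Beside them, 23.7% of all genes tested were called lower in control and 23.4% in elt-2 OE. The 4 body muscle genes were all called lower at Day 13 in both strains, and their summed level went from 189 to 409 CPM at L4 to 3.11 to 11.7 CPM at Day 13. Of the 5 intestine genes, 4 were called lower in each strain. Of the sperm genes, 2 of 3 tested were called lower in control and 3 of 3 in elt-2 OE. Of 4 germline genes, glh-1, a germ granule helicase, was called lower in control (-1.81 ± 0.52, edgeR adjusted p = 0.0175) and none was called in elt-2 OE. Of 4 neuron genes tested, 3 were called lower in control and 2 in elt-2 OE, whereas snb-1, which encodes synaptobrevin, was called higher in both (1.36 ± 0.39 and 1.07 ± 0.43, adjusted p = 0.0178 and 0.0678). In the hypodermis list the collagens rol-6, dpy-7 and sqt-3 were called lower in both strains, whereas lin-26, which specifies the hypodermis, was called higher in both (log2 change 1.73 ± 0.60 and 0.80 ± 0.29, edgeR adjusted p = 0.0421 and 0.0485). In elt-2 OE the hypodermal GATA factor gene elt-1 was also called higher (1.31 ± 0.47, edgeR adjusted p = 0.0430) and elt-3 lower (-1.68 ± 0.54, adjusted p = 0.0280). The summed level of the 6 hypodermis genes was 69.9 to 1421 CPM at L4 and 12.6 to 79.5 CPM at Day 13. The part of these shifts in the fall of the moulting genes was not tested.

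The comparison of strains asked whether elt-2 OE and control differed in these genes at the same age. At L4 none of the 9 tested genes was called, none had an unadjusted p under 0.05, and DESeq2 called none. Only 0.0345% of all genes were called in that fit by edgeR. L4 libraries of the same letter correlated across the strains, but unlike letters were not compared. With the letter as a replicate block the fit called 211 genes instead of 3, but again none of the 9. Log2 differences ran from -1.03 ± 0.61 for dpy-5 (adjusted p = 0.545) to 0.70 ± 0.38 for nhr-23 (adjusted p = 0.520). With elt-2 OE L4 between 1.89 and 155 CPM for mlt-10, the SE of its difference was 1.21 around a value of 0.11.

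The direction of the strain difference at L4 depended on the letter. In letters A, B and C mlt-10 was lower in elt-2 OE than in control, by log2 differences of -1.23, -3.70 and -1.26, and mlt-11, noah-2, lin-42 and dpy-5 were lower in all 3 as well. In letter D mlt-10 was higher by 0.94 and in letter E it was lower by 0.27, while noah-2 was higher in both. A fit of letters A to C alone called 5 of the 9 tested genes, all lower in elt-2 OE, beside 17.2% of all genes called lower. These were mlt-10 (-2.55 ± 0.58, edgeR adjusted p = 0.0257), mlt-11 (-2.05 ± 0.51, 0.0288), noah-2 (-1.69 ± 0.48, 0.0401), dpy-5 (-1.92 ± 0.67, 0.0772) and lin-42 (-1.88 ± 0.67, 0.0774). A fit of letters D and E alone, with 2 libraries per strain, called none of the 9, beside 0.335% of all genes. Both sets of letters were taken from these same counts, so the calls within them are a description only. In letters A to C col-19 was at 7393, 13140.1 and 7275 CPM in elt-2 OE and at 8019.5, 4029 and 7074 CPM in control, so in elt-2 OE col-19 was higher in letters B and C and lower in letter A. The part of stage in this strain difference was not tested.

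**Figure D4:**
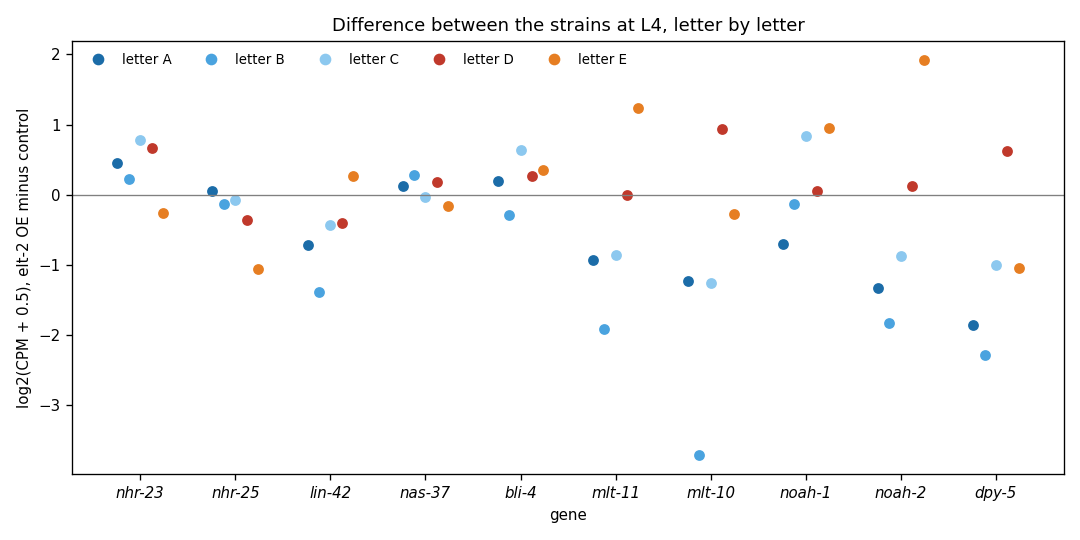
Points give the difference in log2(CPM + 0.5) between elt-2 OE and control at L4 for each gene, 1 point per letter. For mlt-11, mlt-10, noah-2 and dpy-5 the 3 points of letters A to C (blue) are below 0, the lowest being mlt-10 in letter B at -3.70, and letter D (red) is above 0 for mlt-10, noah-2 and dpy-5 and letter E (orange) for mlt-11 and noah-2.

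At Day 13 none of the 5 tested genes was called between the strains, beside 0.0117% of all genes, and 1 had an unadjusted p under 0.05. That was noah-2, lower in elt-2 OE at 0.731 ± 0.214 CPM against 2.09 ± 2.07 CPM in control (SD, n = 5, edgeR log2 difference -1.51 ± 0.61, adjusted p = 0.324). DESeq2 called noah-2 (-1.63, adjusted p = 0.0929), and so did edgeR within letters A to C (-2.07 ± 0.51, adjusted p = 0.0140, with 23.2% of all genes called lower there), whereas within letters D and E it was 0.36 ± 0.65 (adjusted p = 0.930). mlt-11 was higher in elt-2 OE in 5 of 5 letters but rested on 1 to 6 counts per library. nas-37 was lower in 5 of 5 letters, at 0.146 ± 0.107 against 0.395 ± 0.298 CPM, and did not pass the filter.

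The age changes of the strains were compared by an interaction term over all 20 libraries. None of the 9 tested genes was called, none had an unadjusted p under 0.05, and DESeq2 called none. Of all 10545 genes tested 0% were called, with 266 at an unadjusted p under 0.05. Over all letters the widest differences were for noah-2 (-2.16 ± 1.31, a steeper fall in elt-2 OE) and nas-37 (-1.56 ± 0.84). In that fit every adjusted p was 1. Within letters A to C alone the interaction was 2.93 ± 0.93 for mlt-10 and 3.02 ± 0.93 for mlt-11, a lesser fall in elt-2 OE. Neither was called (edgeR adjusted p = 0.246 and 0.222), and 6 of the 9 genes were above 0 there. Within letters D and E alone these 2 values were -0.42 ± 0.76 and 0.13 ± 0.72.

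Other genes of the moult were read from lists grouped by role. Among 11 further genes of the precuticle and apical matrix, 5 of 7 tested were lower and 1 was higher at Day 13 in control, and 4 of 6 were lower and 1 higher in elt-2 OE. Over all genes tested, 23.7% were called lower and 21.9% higher in control, and 23.4% lower and 25.8% higher in elt-2 OE. The hedgehog-related gene qua-1 changed by -6.33 ± 0.63 and -6.69 ± 1.03 (edgeR adjusted p = 5.3e-05 and 0.000400), mlt-8 by -6.93 ± 1.44 and -6.02 ± 1.68 (0.00358 and 0.0147), and mlt-9 by -4.91 ± 0.59 and -5.44 ± 1.07 (0.000116 and 0.00200). egg-6, a leucine-rich repeat protein of epithelia, rose (0.98 ± 0.44 and 1.32 ± 0.32, adjusted p = 0.0998 and 0.00708). At L4, 8 of the 11 had all libraries of letters D and E above all of letters A to C, for example mlt-8 at 14.4 to 24.0 CPM in D and E and 0.252 to 2.07 CPM in A to C. In the whole list of 14 genes, mlt-10, noah-1 and noah-2 included, 10 had a mean of at least 1 CPM at L4. Of these 8 showed this order, beside 23.1% of all genes at that level. So did 2 of 4 intestine genes and 2 of 4 body muscle genes at that level. The median log2 change of the tested genes among the 11 was -3.56 in control and -4.58 in elt-2 OE, beside 0.12 and 0.22 over all genes.

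Among 8 further proteases and inhibitors, 2 of 4 tested were lower in control and 2 of 3 in elt-2 OE, beside 23.7% and 23.4% of all genes. In control the astacin nas-38 changed by -4.89 ± 0.82 (edgeR adjusted p = 0.000953) and the cathepsin cpz-1 by -1.13 ± 0.51 (adjusted p = 0.0983). In elt-2 OE cpz-1 and a further cathepsin, cpl-1, changed by -1.81 ± 0.62 and -1.57 ± 0.33 (adjusted p = 0.0357 and 0.00286). Of 15 cross-linking, sterol uptake and hedgehog-related genes, 4 of 8 tested were lower and none higher in control, and 3 of 7 were lower and 1 higher in elt-2 OE. The shares of all genes called lower were again 23.7% and 23.4%. The genes called lower include wrt-10, a hedgehog-related gene of the warthog family (-3.47 ± 1.10 and -3.82 ± 1.34, adjusted p = 0.0277 and 0.0399), and the peroxidase mlt-7, which was called in control (-2.33 ± 0.61, adjusted p = 0.0119). wrt-2 fell in control (-1.81 ± 0.80, adjusted p = 0.0952). In elt-2 OE the patched-family genes ptc-3 and ptr-23 fell (-2.32 ± 0.70 and -0.97 ± 0.38, adjusted p = 0.0210 and 0.0599) and dab-1, an adaptor of endocytosis, rose (1.03 ± 0.34, adjusted p = 0.0297).

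Other regulators of the moult and of larval timing were called in either direction. Of 14 further regulators, 2 of 9 tested were lower and 2 higher in control, beside 23.7% lower and 21.9% higher of all genes, and 3 of 8 were higher and none lower in elt-2 OE, beside 25.8% and 23.4%. The median log2 change of this set was -0.23 and 0.33, beside 0.12 and 0.22 over all genes. Lower in control were bed-3, a zinc finger gene that acts at the moult (-2.43 ± 0.62, edgeR adjusted p = 0.0100), and myrf-1, a membrane-bound factor required for moulting (-1.86 ± 0.55, 0.0219). The heterochronic genes lin-28 and lin-41, which hold larval fates and are also expressed in the germline, were higher at Day 13 in control (2.01 ± 0.43 and 1.01 ± 0.45, adjusted p = 0.00386 and 0.0963). They were higher in elt-2 OE too (1.75 ± 0.41 and 1.64 ± 0.49, adjusted p = 0.00545 and 0.0193), where myrf-2 also rose (1.86 ± 0.37, 0.00195). No gene of these lists was called between the strains at either age or in the interaction.

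Of the adult cuticle collagens, 2 of 3 tested were called lower at Day 13 in control and 3 of 3 in elt-2 OE, beside 23.7% and 23.4% of all genes. The collagens bli-1 and bli-2, which form struts of the adult cuticle, had log2 changes of -7.72 ± 0.90 and -9.99 ± 1.22 in control worms and of -7.34 ± 1.37 and -11.05 ± 1.11 in elt-2 OE (edgeR adjusted p between 2.94e-05 and 0.00138). col-19 was called lower in elt-2 OE (-3.90 ± 1.14, edgeR adjusted p = 0.0180) and was not called in control (-3.03 ± 1.60, adjusted p = 0.155). Of the 6 yolk genes, vit-1 and vit-3 were called lower in both strains (-3.69 ± 1.31 and -5.85 ± 1.90 in control, -5.57 ± 1.15 and -7.26 ± 1.40 in elt-2 OE), and the other 4 were not called in either. No difference between the strains in these changes was called.

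The genes whose L4 pattern lay closest to that of 3 of the members were found by the root mean square difference of log2 levels over the 10 L4 libraries, each gene centred on its mean. For mlt-10, whose own spread was 2.15, the nearest were grl-5, a ground-like gene (0.351), ZK662.2 (0.431), T24F1.7 (0.519), C38C6.3 (0.560) and Y54G2A.9 (0.563). For nas-37, with a spread of 0.414, they were hmg-3, mxl-3, catp-7, W06H8.5 and fln-1 (0.197 to 0.249). For nhr-23, with a spread of 0.358, they were sptl-3, xpo-7, tif-1A, ark-1 and magu-4 (0.139 to 0.199). These differences were 0.164 to 0.262 of the spread for mlt-10 and 0.388 to 0.603 of it for nas-37 and nhr-23, so the likeness was closer for mlt-10. At L4 nhr-23 rested on 8 to 38 counts per library and nas-37 on 10 to 48. Counting error is thus part of their spread, and its share was not computed.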

How the data were processed

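Whole-worm RNA of 20 libraries was measured by 3SEQ. The authors deposited raw read counts per gene, and the submitters' processing notes name Bowtie 0.12.7. The genome build, gene annotation, counting tool, use of strand and handling of duplicate reads are not given in the sources used here. The table held 1 further column of values without a header, which was not used. Symbols came from the RefSeq table of WBcel235 by sequence name (20158 of 21383 genes, 94.3%), and positions from the Ensembl annotation of that assembly.

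Counts were fitted in R 4.3.3 with edgeR 4.0.16 (filterByExpr, TMM, glmQLFit with the robust option, quasi-likelihood F test) on the 10 libraries compared, or on all 20 for the interaction. P-values were adjusted by Benjamini-Hochberg over all genes tested, and SE was the log2 change divided by the root of F. Scripts were tested on simulated counts. Alternatives were a replicate block, DESeq2 1.42.0, its size factors in edgeR, totals without the 3% most counted genes (641 genes), no filter, letters A to C or D and E alone, and leaving out each library. For L4 letters, 0.1 and 2 were tried in place of the 0.5 added to CPM. Genes that the filter left out of an age fit were given exact permutation tests, chosen after the data had been seen.

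For libraries of the same letter, deviations from group means were correlated across genes. Every letter was above 0.1 for control ages (0.410 to 0.649) and L4 strains (0.514 to 0.797). Not every letter was for elt-2 OE ages (0.0897 to 0.602) and Day 13 strains (0.0557 to 0.632). Libraries of unlike letters were not compared. These values therefore cannot tell pairing by letter from the division into A to C and D and E.

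The 10 genes and the lists were chosen with earlier results of these data known. All 10 genes are named in the comparisons of ages, and only some of them in the comparisons of strains and the interaction. From each list up to 3 called genes per direction with the largest change are named in each age comparison, together with elt-2, and for nhr-23, nas-37 and mlt-10 the 5 genes of nearest L4 pattern with a mean of at least 1 CPM. C17G1.5, T27A1.3, lips-7 and mut-2 are named as overlapping genes, and other genes named, such as rol-6, come from lists of tissue markers, given by their counts with examples. Intervals and floors cover counting error only, since reads carry no molecular identifiers. Promoter sequence was not used here.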

Additional observations from a re-analysis of the deposited data

Results flagged for a closer look

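Among 40 groups of 5 libraries (10 genes in 4 groups), 2 held a library whose gap to its neighbour was large for the range of the group (above 0.71 of it), and chance gives about 1 such group in 20. In control L4 the library of letter E held nhr-25 at 0.828 CPM (14 counts), where the next was at 0.287 CPM. In elt-2 OE L4 the library of letter D held nas-37 at 1.81 CPM (48 counts), where the next was at 0.830 CPM.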

How the results depend on the processing

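Counts of called genes changed with some settings. In the control age comparison 7 of 8 were called, 4 of 8 within letters A to C, and between 4 and 7 when 1 library was left out. In the elt-2 OE age comparison 5 of 7 were called, 4 of 7 within letters A to C, and 6 of 7 with totals without the 3% most counted genes. With the replicate block it was 3 of 7, where noah-1 (-2.27, adjusted p = 0.171) and noah-2 (-2.41, 0.114) were lost. Same-letter correlations were not all above 0.1 for these libraries. At L4 none of 9 was called between strains, and 5 within letters A to C. At Day 13 none of 5 was called, 1 with DESeq2 and 1 within letters A to C. The block changed no other call of the 10 genes. Over all genes, no filter raised the control age calls from 4135 to 6341 and the elt-2 OE age calls from 4361 to 6587. At L4 the strain calls went from 3 to 211 with the block, 461 with DESeq2, 2957 in letters A to C, 30 in letters D and E, and 2 with no filter or with DESeq2 size factors. At Day 13 they went from 1 to 0 with the block or in letters D and E, 741 with DESeq2, 4094 in letters A to C, and 2 with no filter or with totals without the 3% most counted genes. For the interaction they went from 0 to 138 in letters A to C and to 20 with D and E alone. With no filter, genes called lower went from 2 to 4 among regulators in control and from 0 to 4 in elt-2 OE, from 3 to 8 among proteases and inhibitors in elt-2 OE, from 7 to 11 in the precuticle list in elt-2 OE, and from 4 to 9 and 3 to 9 in the cross-linking list, all members included.

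Outside settings that leave out 1 library, 265 log2 values were recomputed. Of these 224 kept direction and side of the threshold, 9 lost a call, 6 gained one and 26 changed sign. The changes of sign were these. The control age change of nhr-23 was 0.29 with totals without the 3% most counted genes and 0.073 with no filter. For the strains at L4 the replicate block gave mlt-10 -1.17, mlt-11 -0.86 and noah-2 -0.67, and letters A to C gave mlt-10 -2.55, mlt-11 -2.05, noah-1 -0.033 and noah-2 -1.69. For the strains at Day 13 letters D and E gave nhr-23 -0.20, mlt-10 -0.064, dpy-5 0.52 and noah-2 0.36, totals without the 3% most counted genes gave bli-4 0.22 and dpy-5 0.33, and letters A to C gave bli-4 0.28. For the interaction letters A to C gave lin-42 1.38, mlt-10 2.93 and bli-4 0.27, letters D and E gave noah-1 -1.21, and totals without the 3% most counted genes gave lin-42 0.12. For mlt-10 the interaction was 1.01 with the block, 0.087 with DESeq2, 0.084 with its size factors, 0.10 with totals without the 3% most counted genes and 0.062 with no filter. The cause was not tested.

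Leaving out each library in turn gave these ranges where a sign changed. The control age change of nhr-23 ran from -0.35 to 0.042. At L4 the strain differences ran from -0.31 to 0.42 for nas-37, -0.999 to 0.588 for mlt-10, -0.47 to 1.02 for mlt-11, -0.45 to 1.55 for noah-1 and -0.39 to 1.22 for noah-2. At Day 13 they ran from -0.34 to 0.67 for mlt-10, -0.27 to 0.066 for bli-4 and -0.53 to 0.093 for dpy-5. The interaction ran from -0.90 to 0.35 for lin-42, -0.52 to 1.09 for mlt-10, -0.22 to 1.19 for mlt-11 and -0.78 to 1.28 for noah-1. None of these was called. Levels of nhr-23, nhr-25, nas-37 and, at Day 13, lin-42, mlt-11 and noah-1 rested on at most 48 counts per library, so small differences in them were not detectable at this depth.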
